A study of Mus musculus with 6 samples.

Results

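Most of the genes described here encode factors that start and carry out protein synthesis on ribosomes. They were chosen by name: all rows of the gene table whose symbol begins with Eif1 to Eif6, Eef1 or Eef2, other than names marked as pseudogenes by "-ps". This gave 67 of 23420 genes, and the rule takes in the 4E-BPs (*Eif4ebp1*, *Eif4ebp2*, *Eif4ebp3*), the eIF2 kinases and the eEF2 kinase. The name translation factor is kept for 63 of the 67, although these include regulators such as the 4E-BPs and the kinases. They also include *Eef1e1*, of the aminoacyl-tRNA synthetase complex, and *Eif4a3*, of the exon junction complex. The other 4, *Eif2c1*, *Eif2c2*, *Eif2c3* and *Eif2c4*, are older symbols of the Argonaute genes *Ago1*, *Ago2*, *Ago3* and *Ago4*. These bind small RNAs and are no translation factors, so their values are described apart. Counts over all genes chosen by the rule, called translation genes for short, do include the Argonautes.

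RNA was measured in whole mouse lungs at stage E11.5dpc (days *post coitum*). The 3 control pools were *Raptorf/+; ShhCre/+* and the 3 mutant pools were *Raptorf/f; ShhCre/+*, with 3 or 4 lungs in each pool. Both groups therefore carried 1 *ShhCre* allele and at least 1 floxed *Rptor* allele, and the groups differed in whether the second *Rptor* allele was floxed. *ShhCre* acts in the lung epithelium, while the libraries also hold RNA of mesenchyme, vessels and blood, so a difference in epithelial cells reaches these values only in proportion to the epithelial share of the RNA.

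Translation begins when eIF4E binds the cap of an mRNA, joins eIF4G and the helicase eIF4A in the complex eIF4F, and through eIF3 recruits a small ribosomal subunit that carries eIF2 with the initiator tRNA. mTORC1, of which RPTOR is the defining subunit, phosphorylates the 4E-BPs and so releases eIF4E, and it favours the translation of mRNAs that begin with a run of pyrimidines (TOP mRNAs), which include those of most elongation factors and of some eIF3 subunits. Phosphorylation of eIF2 by its kinases, and of eEF2 by eEF2K, slows initiation and elongation. These controls act on proteins and on the use of mRNAs, whereas the values here are mRNA levels.

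The libraries held 20705058 to 20865998 normalized counts, and 20197642 to 21276090 reads in the 5 libraries for which reads could be recovered. At this depth 64 of the 67 genes passed the filter (at least 3 libraries with a value of 1 or more). *Rptor* itself was at 2126, 2193 and 2279 normalized counts in the control pools and 2023, 2137 and 2148 in the mutant pools, which overlap (log2 difference -0.06, SE 0.05, limma adjusted p = 0.584). Counts for a whole gene do not separate a floxed exon from the others, so this does not check the deletion. Markers of the labelled tissue were present, and all 20 epithelial markers and all 14 mesenchymal markers passed the filter. The epithelial list was lower in the mutant pools, with 18 of 20 genes lower at an unadjusted p under 0.05, 7 of them past the adjusted threshold, and a summed level of 14201 to 15349 against 18001 to 22539 in the control pools. Among them *Cdh1*, which encodes E-cadherin, had a log2 difference of -0.97 (SE 0.10, limma adjusted p = 0.00728). *Krt19*, also on that list, went the other way and was higher in every mutant pool (0.44, SE 0.09, limma adjusted p = 0.0734). Mesenchymal markers summed to 130125 to 136692 in the mutant and 106969 to 113323 in the control pools. The most abundant of them were *Col3a1*, *Col1a2* and *Col1a1*, with log2 differences of 0.26, 0.34 and 0.49. Of the 14 genes, 6 were higher and 0 lower at an unadjusted p under 0.05, with 4 past the adjusted threshold. Of other tissues, 5 of 10 endothelial markers were higher at an unadjusted p under 0.05, among them *Tie1* (log2 difference 0.27), while 3 of 10 neural and 3 of 10 cardiac muscle markers were lower, among them *Nkx2-5* (-1.54) and *Myh6* (-1.30). Of 6 mesothelial markers 2 were higher, and of 8 erythroid and 9 macrophage markers 0 had an unadjusted p under 0.05. Over all genes tested, 6.67% were higher and 6.89% lower at that threshold. In such bulk samples fewer cells of a type and less RNA per cell cannot be told apart. Control pool 3 stood apart: it held the highest or the lowest value for 49.4% of all tested genes and for 39 of the 64 translation genes, against 23.6% to 37.3% of tested genes in the other libraries. It also had the highest *Xist*, the RNA that coats the inactive X chromosome of female cells, at 12989 normalized counts. Over the 15 pairs of libraries, the SD of the log2 difference over the translation genes was 0.157 to 0.207 in the 5 pairs with this pool and 0.083 to 0.143 in the 10 pairs without it. Over all tested genes these ranges overlapped, at 0.484 to 0.581 and 0.439 to 0.510. Results that rest on it are given with and without it.

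No translation gene passed the test. In the mutant pools 0 of 64 genes had an adjusted p under 0.05 in limma, against 86 of 17168 genes in all, or 0.501% (32 genes or 0.186% higher and 54 genes or 0.315% lower). The lowest adjusted p was 0.188, for *Eif3f*. At an unadjusted p under 0.05, 2 genes were higher and 5 were lower, which is 10.9% of 64 beside 13.6% of all genes tested (6.67% higher and 6.89% lower). The 3 mutant pools did not overlap the 3 control pools for 7 genes, 2 higher and 5 lower, beside 20.2% of all genes (9.77% higher and 10.5% lower). Without the Argonautes, both shares were 11.7% of 60 genes tested. With all 6 pools both shares of translation genes were thus lower than those of all genes, and without control pool 3 both were higher. In those 5 pools 14 of 64 genes (21.9%) had an unadjusted p under 0.05, beside 16.9% of all genes, and 27 of 64 (42.2%, 3 higher and 24 lower) did not overlap, beside 34.0% of all genes (16.2% higher and 17.8% lower). The counts moved with other pools as well: leaving out 1 pool at a time gave 1 to 2 genes higher and 1 to 12 lower at an unadjusted p under 0.05, with 12 lower without control pool 3 and 1 lower without mutant pool 3, and 1 to 468 genes in all past the adjusted threshold. The median log2 difference (mutant minus control) was -0.04 over the 64 genes and -0.00 over all genes, with 22 genes above 0 and 42 below.

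The differences were small as well as uncalled. The 95% interval of the log2 difference lay within 0.25 of 0 (1.19-fold) for 53 of 64 genes, and within 0.5 (1.41-fold) for 61 of 64. The estimates ran from -0.28 for *Eif2c3* to 0.23 for *Eif2s3y*. Together the 67 genes held 3.0% to 3.1% of all normalized counts in the pools of either group. The plot of all differences by role shows the narrow intervals of the abundant factors and the wide ones of *Eef1a2*, *Eif2c3*, *Eif2c4* and *Eif2s3y*.

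**Figure D1:**
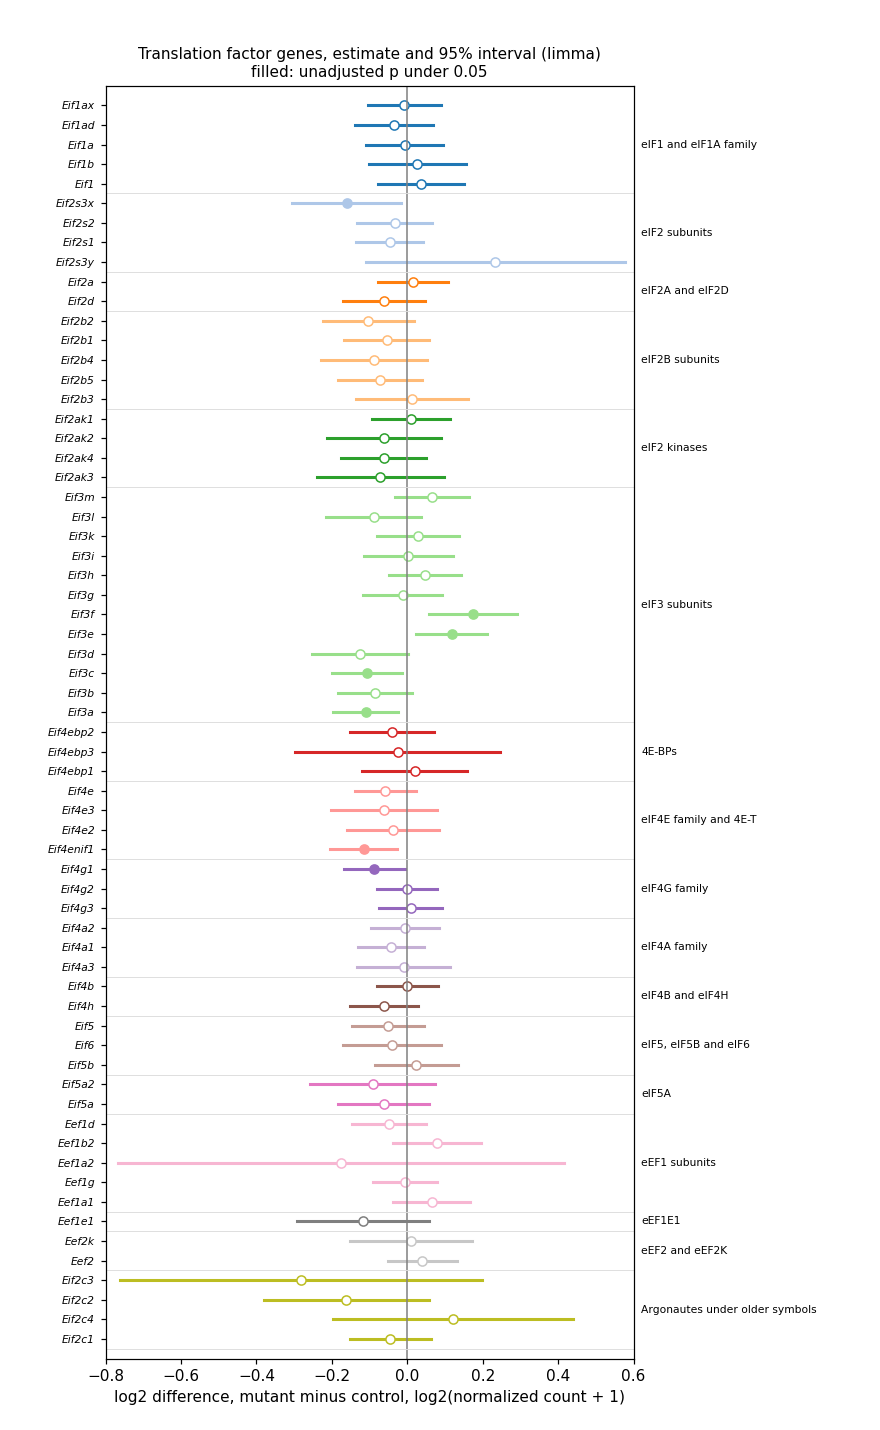
Log2 difference (mutant minus control, on log2(normalized count + 1)) of the 64 tested genes on the horizontal axis, with its 95% interval as a bar, grouped by role. Filled points have an unadjusted p under 0.05 (2 higher, 5 lower) and the line marks 0, which the other 57 intervals include.

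Levels per kilobase of exon spread over nearly 4 orders of magnitude between factors, while the 2 groups of pools lay close together for each factor. The elongation factors led. *Eef1a1*, which delivers aminoacyl-tRNA to the ribosome, had a mean level of 87614 normalized counts per kilobase in the control pools and 91619 in the mutant pools, and alone held 1.02% to 1.07% and 1.06% to 1.13% of all counts. *Eef2*, the translocase, followed at 22712 and 23346, *Eif5a* at 11386 and 10879, and *Eef1g*, a subunit of the exchange factor eEF1B, at 9838 and 9797. The helicase *Eif4a1* was the fifth at 5129 and 4979. The lengths join all annotated exons of a gene, so this order depends on the annotation as well. *Eif4a1* was given 4334 bases and *Eef1g* 2600, for mean control counts of 22228 and 25579. The 4 eIF2 kinases were at 82.4 to 300.4 per kilobase in the control pools. *Eef1a2*, the eEF1A form of muscle and neurons, was the lowest of the tested translation factors, at 9.16 and 7.95 per kilobase. *Eef1a1*, *Eif4a1*, *Eif5a* and *Eif1* have processed pseudogene copies, so reads may have been split between loci and their levels are uncertain.

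**Figure D2:**
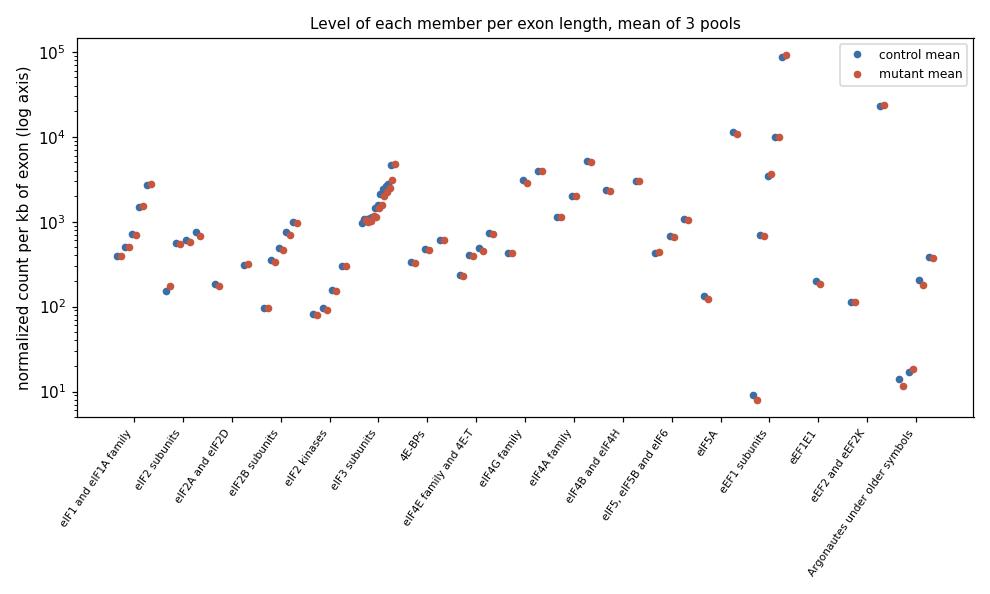
Mean level of each tested gene in 3 control pools and 3 mutant pools, in normalized counts per kilobase of exon on a log axis, by role. *Eef1a1* is at the top near 87614 and *Eef1a2* lowest at 9.16 in the control pools, and the control and mutant points of a gene nearly coincide. *Eif3j1*, *Eif3j2* and *Eif4e1b*, at or near 0, are not drawn.

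The 4E-BPs, the inhibitors that mTORC1 switches off by phosphorylation, were level between the groups within their spread. *Eif4ebp1* was at 1433, 1315 and 1213 normalized counts in the control pools and 1307, 1355 and 1345 in the mutant pools. *Eif4ebp2* was at 2729.6, 2698 and 2891 in the control pools and 2555, 2702 and 2838 in the mutant pools. Both sets overlap, with log2 differences of 0.02 (95% interval -0.12 to 0.16, adjusted p = 0.919) and -0.04 (-0.15 to 0.07, adjusted p = 0.772). *Eif4ebp3* was low, at 227, 226 and 297 against 267, 233 and 233, and 67.3% of its exonic bases are shared with another gene on the same strand, so its reads are uncertain. The ratio of *Eif4ebp1* to *Eif4ebp2* within a pool differed by 0.06 on the log2 scale (two-sided exact permutation p = 0.7, where the smallest possible p for 3 pools against 3 is 0.1).

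*Eif4e*, the cap-binding protein, was at 4482, 4413 and 4486 normalized counts in the control pools and 4335, 4199 and 4317 in the mutant pools. The highest mutant pool lay under the lowest control pool, but the gap was small, with a log2 difference of -0.06 (SE 0.04, adjusted p = 0.522). *Eif4enif1* encodes 4E-T, which carries eIF4E into the nucleus and into P-bodies. It was at 3063, 3103 and 3185 in the control and 2937, 2887 and 2808 in the mutant pools (log2 difference -0.12, SE 0.04, adjusted p = 0.237), again without overlap. *Eif4g1*, the main scaffold of eIF4F, was the third without overlap, at 22169, 22615 and 22109 against 20756, 21552 and 20650.4 (-0.09, SE 0.04, adjusted p = 0.326). None of the 3 passed the adjusted threshold, and 10.5% of all genes were lower without overlap in the same way. *Eif4g2*, which works without eIF4E, and *Eif4g3* had log2 differences of 0.00 and 0.01 with overlapping pools. *Eif4e1b*, an eIF4E relative known from egg cells, was at 0 in all 6 pools and was not tested.

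Among the helicases and their cofactors, *Eif4a1* was at 22636, 22249 and 21799.6 in the control and 22220.2, 20804 and 21717 in the mutant pools, and its paralog *Eif4a2* was at 5974, 5805 and 6289.8 against 6009, 6048 and 5918. Both overlapped between the groups, and the ratio of *Eif4a2* to *Eif4a1* differed by 0.04 on the log2 scale (exact permutation p = 0.5). *Eif4a3*, the helicase of the exon junction complex rather than of eIF4F, had a log2 difference of -0.01. *Eif4b*, which stimulates eIF4A and has a TOP mRNA, was at 13254, 13299 and 13794 in the control pools and 13710.0, 13397 and 13241 in the mutant pools, a log2 difference of 0.00 (95% interval -0.08 to 0.08). *Eif4h*, a cofactor of eIF4A like *Eif4b*, was at 13190.3, 13729 and 12537 against 12611, 12615 and 12566 (-0.06, SE 0.04, adjusted p = 0.551). Control pool 3 was again the lowest, and without it the log2 difference was -0.10, at an unadjusted p under 0.05 (adjusted p = 0.151).

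eIF3, the large scaffold that binds the small ribosomal subunit, held 4 of the 7 genes with an unadjusted p under 0.05. These were 33.3% of its 12 tested subunits, beside 13.6% of all genes. The share without overlap between the groups was also 33.3%, beside 20.2% of all genes. The subunits did not move together. Of the 12 subunits tested, 6 had an estimate above 0 and 6 below. *Eif3f* was at 8004, 8461 and 7286 normalized counts in the control pools and 9072, 8833 and 8823 in the mutant pools. *Eif3e* was at 6628, 6281 and 6594 in the control pools and 7233, 7197 and 6739 in the mutant pools. Every mutant pool was above every control pool for both, with log2 differences of 0.17 (SE 0.05, adjusted p = 0.188) and 0.12 (SE 0.04, adjusted p = 0.253). *Eif3a*, the largest subunit, went the other way, at 9521, 9304 and 9685 against 9030.3, 8914 and 8464 (-0.11, SE 0.04, adjusted p = 0.246). So did *Eif3c*, which joins *Eif3a* in the core of the complex, at 8559, 8949 and 8178 against 8095, 7809 and 7938 (-0.11, SE 0.04, adjusted p = 0.302). Neither overlapped between the groups.

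The estimates of the subunits lay on both sides of 0. *Eif3e*, *Eif3f* and *Eif3h*, the 3 subunits on the list of TOP mRNAs, had estimates above 0 (median 0.12), while 6 of the other 9 had estimates below 0 (median -0.09). That list was chosen with earlier results of these data known, so the split is a description. A link between TOP mRNAs and the direction was not tested. *Eif3h* itself, at 7765, 7216 and 7193 against 7860.4, 7449 and 7605, overlapped between the groups. The whole TOP list of 9 translation factors adds *Eif4b* and 5 elongation factors. Of the 9, 7 had estimates above 0 (median 0.05), as did 8495 of the 17168 genes tested. The 2 with an unadjusted p under 0.05 (22.2%, beside 13.6% of all genes) were again *Eif3e* and *Eif3f*. With *Xist* as a covariate *Eef1a1*, *Eef1b2* and *Eef2* turned below 0. Within a pool, the log2 ratio of *Eif3f* to *Eif3a* was -0.25, -0.14 and -0.41 in the control and 0.01, -0.01 and 0.06 in the mutant pools, and that of *Eif3e* to *Eif3c* was -0.37, -0.51 and -0.31 against -0.16, -0.12 and -0.24. In GRCm38, *Eif3f* lies at chr7:108934417-108942951, *Eif3e* at chr15:43250058-43282719, *Eif3a* at chr19:60761117-60790658 and *Eif3c* at chr7:126546455-126566411. The 2 ratios were chosen after their values were seen and are given without a test. A ratio within a pool does not depend on the size factor.

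**Figure D3:**
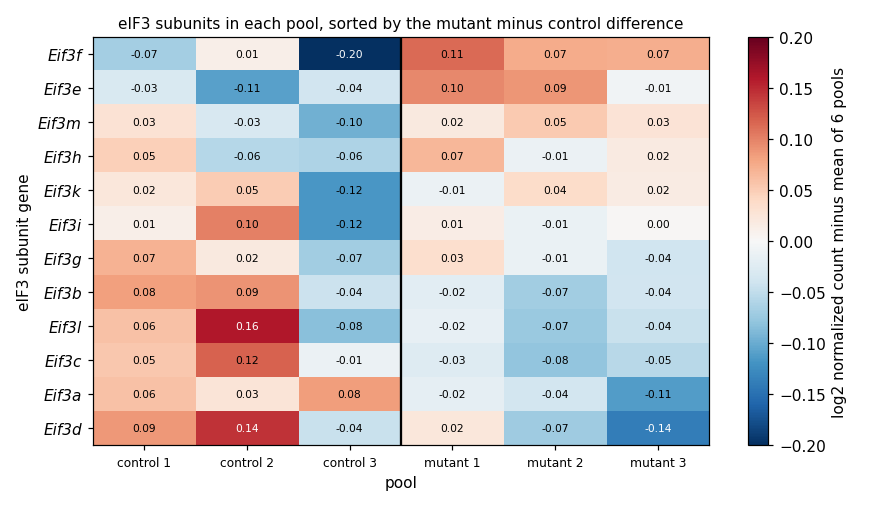
Each cell gives the log2 normalized count of an eIF3 subunit in 1 pool minus its mean over the 6 pools, with subunits in rows sorted by the mutant minus control difference. *Eif3f* and *Eif3e* are higher in every mutant pool than in any control pool, and *Eif3a* and *Eif3c* are lower. *Eif3d*, in the last row, overlaps between the groups. Control pool 3 has the lowest value of *Eif3f* (-0.20).

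Control pool 3 and the *Xist* level moved with these values. Without control pool 3, *Eif3f* and *Eif3e* kept log2 differences of 0.11 and 0.13 (limma adjusted p = 0.117 and 0.123), and 5 of the 9 subunits outside the TOP list had an unadjusted p under 0.05, all lower: *Eif3a*, *Eif3b* (-0.13), *Eif3c* (-0.14), *Eif3d* (-0.18) and *Eif3l* (-0.15). Over all translation genes, 2 were then higher and 12 lower at an unadjusted p under 0.05, beside 8.37% and 8.58% of all genes, and 1 gene passed the adjusted threshold, beside 2.75% of all genes. On the recovered reads of the same 5 libraries edgeR called *Eif3d* (adjusted p = 0.0490) and *Eif3l* (adjusted p = 0.0481), which is 2 translation genes beside 3.68% of all genes, and DESeq2 called 5, *Eif3b*, *Eif3c*, *Eif3d*, *Eif3l* and *Eif5a*, beside 2.13% (adjusted p = 0.0340, 0.0272, 0.0288, 0.0218 and 0.00521). All of these were lower in the mutant pools. Part of *Eif3d*, 43.3% of its exonic bases, overlaps a gene on the opposite strand, so its reads are uncertain. With the log2 *Xist* value as a covariate in all 6 libraries, *Eif3f* had a log2 difference of 0.05 (adjusted p = 0.805) and *Eif3e* of 0.16 (0.394), while *Eif3l*, *Eif3d* and *Eif3c* were at -0.23, -0.25 and -0.19 (0.169, 0.190 and 0.198).

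The start sites of the subunits that differed most are shown because TOP mRNAs are defined by the bases at their 5′ end. Each line gives 15 bases before and 15 from the RefSeq start (GRCm38.p6), 5′ to 3′ on the gene's strand, with the longest unbroken run of C and T in capitals.
Eif3f (chr7:108934400-108934429, plus strand): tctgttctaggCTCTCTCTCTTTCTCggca
Eif3l (chr15:79075208-79075237, plus strand): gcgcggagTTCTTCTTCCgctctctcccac
Eif3a (chr19:60790679-60790708, minus strand): cggggCTCgggcggcggcgctgccgccgcg
Eif3b (chr5:140419290-140419319, plus strand): ctagcggcgcgcggtgaCTTCTgggagtcg
Eif3c (chr7:126566352-126566381, minus strand): CTCacctgctcagagggactcggcagctta
Eif3d (chr15:77970810-77970839, minus strand): gtggtagggccaTTTacgacagcgctggtc
The window of *Eif3f*, which was higher in the mutant pools, held a run of 15 pyrimidines across the start, and that of *Eif3l*, which was lower, held a run of 10. The windows of *Eif3a*, *Eif3b*, *Eif3c* and *Eif3d*, whose estimates were below 0, held runs of 3 to 5. Those of *Eif3m* and *Eif3k*, whose estimates were above 0 (0.07 and 0.03), held runs of 6 and 2. The longest run in the windows of the translation factors, 19, was that of *Eif2b5*, whose estimate was below 0 (-0.07). *Eef2* and *Eef1b2*, on the TOP list, held runs of 2 and 4, so the windows did not pick out that list. Among 10 eIF3 windows from RefSeq, 2 held a run of at least 10, as did 5.34% of all 32851 windows, and a run of at least 15 stood in 1.01% of them. *Eif3e* and *Eif3h* have no entry. A run in a window is a description of the sequence and not a site.

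Per kilobase, *Eif3h* was the highest eIF3 subunit at 4585 in the control pools and *Eif3e* the lowest of the 12 at 968, a 4.74-fold range. This range rests largely on the lengths used, which join all annotated exons of a gene. They were 1612 bases for *Eif3h* and 6719 for *Eif3e*, whose mean control counts were 7391 and 6501. It therefore does not show that the subunits differ so much in mRNA. *Eif3i*, *Eif3m*, *Eif3a* and *Eif3d* followed each other between 1076 and 1135, within the SD of their neighbours. *Eif3j1* was at 0 in all 6 pools and *Eif3j2* at 0 but for a single value of 0.994 in control pool 3. These are near-identical copies, so reads of eIF3j may not have been assigned to either, and neither was tested.

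**Figure D4:**
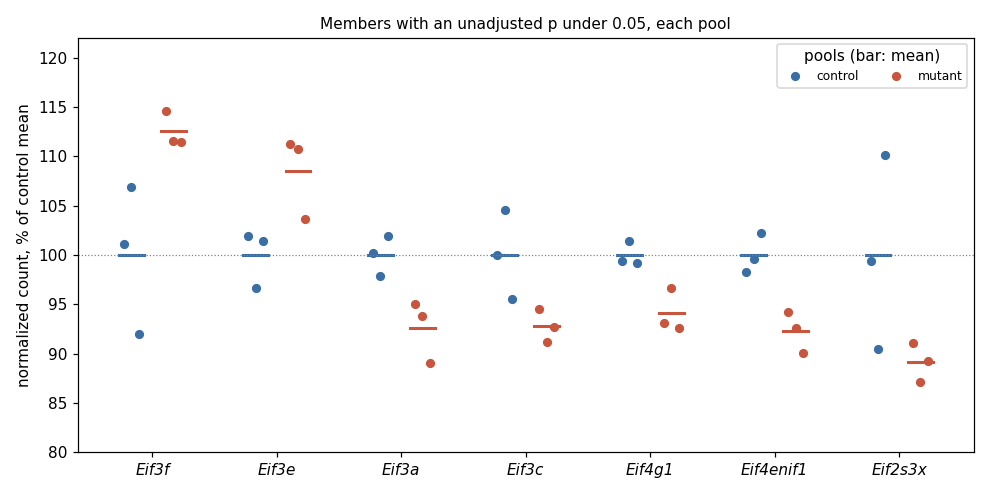
Normalized counts as a percent of the control mean for the 7 genes with an unadjusted p under 0.05, with 1 point per pool and bars at group means; the vertical axis starts at 80%. The groups do not overlap for *Eif3f*, *Eif3e*, *Eif3a*, *Eif3c*, *Eif4g1* and *Eif4enif1*, and do for *Eif2s3x*.

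eIF2 carries the initiator tRNA, and its gamma subunit is encoded on both sex chromosomes. *Eif2s1*, the alpha subunit that the stress kinases phosphorylate, was at 2919, 3005 and 3019 normalized counts in the control pools and 2896, 2943 and 2818 in the mutant pools (log2 difference -0.05, SE 0.04, adjusted p = 0.657). The X-linked *Eif2s3x* was at 2843, 2587 and 3151 in the control pools and 2605, 2492 and 2553 in the mutant pools (-0.16, SE 0.06, adjusted p = 0.310). The Y-linked *Eif2s3y* was at 698, 755 and 455 against 754, 753 and 687 (0.23, SE 0.15, adjusted p = 0.549). Control pool 3 had the highest *Eif2s3x* and the lowest *Eif2s3y* of the 6, and both genes overlapped between the groups.

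Other sex-linked genes also set control pool 3 apart. *Xist* was at 4599, 309 and 12989 in the control and 41.9, 466 and 161 in the mutant pools, and Y-linked *Ddx3y*, an RNA helicase, at 1016, 1198 and 735 against 1212, 1198 and 1177. Control pools 1 and 3 held the most *Xist* and the least *Ddx3y*, and the ranges of *Xist* overlapped between the groups through control pool 2 alone. The log2 difference of *Xist* was -4.16 (SE 1.19, limma adjusted p = 0.164), the furthest below 0 of all genes tested. *Xist* was thus partly aligned with the groups, so the fits with *Xist* as a covariate separate the 2 poorly. The ratio of *Eif2s3y* to *Eif2s3x* differed by 0.39 on the log2 scale (exact permutation p = 0.3), and by 0.10 without control pool 3. In that fit *Eif2s3x* had a log2 difference of -0.09 (adjusted p = 0.361) and *Eif2s3y* of 0.01 (adjusted p = 0.966). With *Xist* as a covariate *Eif2s3x* was at -0.03 (adjusted p = 0.919) and *Eif2s3y*, with its sign turned, at -0.11.

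**Figure D5:**
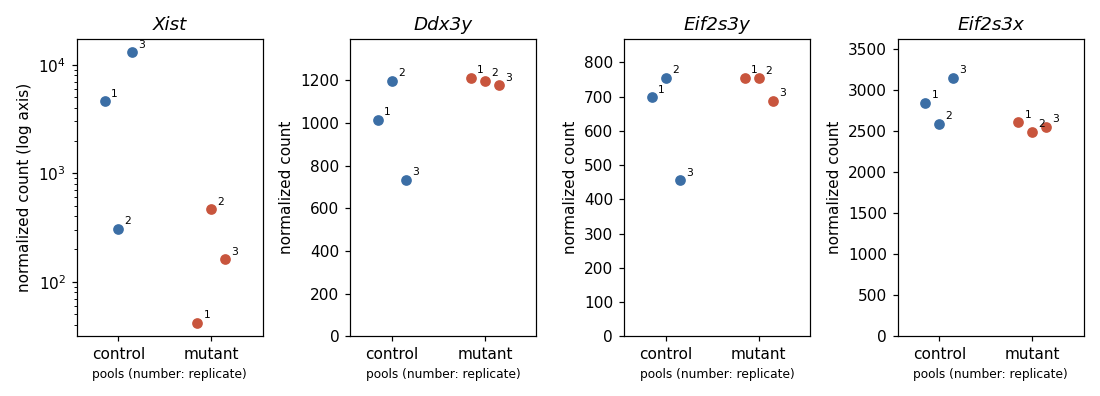
Normalized counts of *Xist* (log axis), *Ddx3y*, *Eif2s3y* and *Eif2s3x* in each pool, with the replicate number beside each point. Control pool 3 has the highest *Xist* (12989) and *Eif2s3x* (3151) and the lowest *Ddx3y* (735) and *Eif2s3y* (455).

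The starts of the 2 gamma subunit genes are printed as a pair of paralogs on the X and Y chromosomes, in the same form as above.
Eif2s3x (chrX:94212637-94212666, minus strand): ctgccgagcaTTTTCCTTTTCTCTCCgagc
Eif2s3y (chrY:1010580-1010609, plus strand): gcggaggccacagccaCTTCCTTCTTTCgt
Both windows held long pyrimidine runs, of 16 and 12 bases, and at least 12 stood in 2.59% of all windows.

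eIF2B, the exchange factor that reloads eIF2 with GTP, had 4 of its 5 subunit genes below 0 (median -0.07), and none had an unadjusted p under 0.05 in the 6 libraries. The furthest was *Eif2b2*, at 1456, 1393 and 1416 against 1335, 1241 and 1398, with 1 pool of overlap (-0.10, SE 0.05, adjusted p = 0.440). Without control pool 3, *Eif2b4* and *Eif2b5* had log2 differences of -0.15 and -0.11 at an unadjusted p under 0.05 (adjusted p = 0.175 and 0.197).

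The 4 eIF2 kinases, which respond to haem shortage, double-stranded RNA, unfolded proteins and uncharged tRNA, all overlapped between the groups. *Eif2ak1* (HRI) was at 1744, 1713 and 1653 in the control pools and 1779.9, 1695 and 1673 in the mutant pools. *Eif2ak2* (PKR) was at 426, 408 and 429 against 415, 402 and 395. *Eif2ak3* (PERK) was at 546, 647 and 563 against 573, 537 and 556. *Eif2ak4* (GCN2) was at 1207, 1206 and 1131 against 1147, 1141 and 1103. Their log2 differences were 0.01, -0.06, -0.07 and -0.06, with adjusted p from 0.636 to 0.945.

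Among the remaining initiation factors, *Eif1*, *Eif1a*, *Eif1ad*, *Eif1ax* and *Eif1b*, which include the scanning factors eIF1 and eIF1A, had log2 differences of -0.04 to 0.04. *Eif6*, which keeps the large ribosomal subunit from joining early, was at 1923, 1878 and 1652 in the control and 1759, 1766 and 1764 in the mutant pools (-0.04, adjusted p = 0.808). Without control pool 3, the lowest of the 6, its log2 difference was -0.11, at an unadjusted p under 0.05 and without overlap (adjusted p = 0.208). *Eif5*, which triggers GTP hydrolysis on eIF2, and *Eif5b*, which joins the subunits, had log2 differences of -0.05 and 0.02.

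eIF5A, which carries the modified residue hypusine and helps ribosomes past stalling sequences, held the 1 limma call that depended on control pool 3. *Eif5a* was at 28351, 28232 and 24613 in the control pools and 25500.1, 25759.7 and 26317 in the mutant pools. Control pool 3 was the lowest of all 6, and the mutant pools lay below the other 2 control pools. The log2 difference was -0.06 (SE 0.05, adjusted p = 0.665) with it and -0.13 (SE 0.03, adjusted p = 0.0463) without it, which made *Eif5a* the 1 translation gene past the limma threshold in those 5 libraries. Its paralog *Eif5a2* was at 654, 605 and 725 against 613, 601 and 644, and the ratio of *Eif5a2* to *Eif5a* differed by -0.03 on the log2 scale (exact permutation p = 1) or, without control pool 3, by 0.11.

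The abundant elongation factors overlapped between the groups. *Eef1a1* was at 219882, 223322 and 212062 normalized counts in the control pools and 235197, 221720.0 and 228303 in the mutant pools (log2 difference 0.06, SE 0.05, adjusted p = 0.584). *Eef2* was at 75129.7, 78069 and 73290.0 in the control pools and 78669, 76424 and 77715 in the mutant pools (0.04, SE 0.04, adjusted p = 0.720). Both estimates were below 0 with *Xist* as a covariate (-0.000775 and -0.02). *Eef1b2*, *Eef1d* and *Eef1g*, the subunits of the exchange factor, had log2 differences of 0.08, -0.05 and -0.01, and that of *Eef1b2* was -0.000649 with *Xist* as a covariate. *Eef1a2* was at 19.6, 22.7 and 14.9 against 16.3, 15.7 and 17.7, a log2 difference of -0.18 with a wide 95% interval of -0.77 to 0.42, and its ratio to *Eef1a1* differed by -0.24 on the log2 scale (exact permutation p = 0.3). *Eef2k*, the kinase that mTORC1 signalling holds in check, was at 817, 782 and 933 in the control and 848, 809 and 887 in the mutant pools, a log2 difference of 0.01 (95% interval -0.15 to 0.17). *Eef1e1*, despite its symbol, encodes a scaffold protein of the aminoacyl-tRNA synthetase complex. Its log2 difference was -0.12 (SE 0.08, adjusted p = 0.551).

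The Argonautes, which bind microRNAs and silence their targets, did not pass the test either. *Eif2c2* (*Ago2*) was at 2553, 2632 and 3404 normalized counts in the control pools and 2339.8, 2685 and 2600.1 in the mutant pools, a log2 difference of -0.16 that was -0.03 without control pool 3. *Eif2c3* (*Ago3*) was low and scattered, at 238, 171 and 295 against 145, 245 and 187, and its log2 difference of -0.28 had a 95% interval of -0.76 to 0.20. It was -0.10 without control pool 3 and 0.39, with its sign turned, with *Xist* as a covariate (adjusted p = 0.395), and ran from -0.49 to 0.39 over the alternatives. *Eif2c1* and *Eif2c4* had log2 differences of -0.04 and 0.12.

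Genes that act beside these factors gave no call past the adjusted threshold. Of the termination and ribosome recycling factors 0 of 9 had an unadjusted p under 0.05 (median log2 difference -0.03), while 4 of 9 did not overlap between the groups, 1 higher and 3 lower, beside 20.2% of all genes. Of the mTORC1 effectors and regulators of eIF4, 0 of 15 besides *Eif4enif1* had an unadjusted p under 0.05 (median -0.01), and 3 were higher and 1 lower without overlap. In that list *Pdcd4*, an inhibitor of eIF4A, was at 1569, 1449 and 1630.1 against 1727, 1624 and 1601 (log2 difference 0.09, adjusted p = 0.507), and *Rps6kb1*, the S6 kinase gene, differed by -0.06 without overlap (adjusted p = 0.624). *Mtor* differed by -0.00 (adjusted p = 0.985). The enzymes that make hypusine on eIF5A and diphthamide on eEF2 gave 0 of 7 at an unadjusted p under 0.05 (median -0.03), with 1 higher without overlap. The factors of selenocysteine insertion and of mitochondrial translation gave 1 of 10, the selenocysteine factor *Secisbp2* (-0.17, adjusted p = 0.340), beside 13.6% of all genes. All 10 had estimates below 0 (median -0.06), as did 8673 of the 17168 genes tested.

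The integrated stress response, which runs through eIF2 phosphorylation and the transcription factor ATF4, had 3 of 14 genes with an unadjusted p under 0.05, 1 higher and 2 lower, which is 21.4% beside 13.6% of all genes. *Asns*, the asparagine synthetase gene and a target of ATF4, was at 1026, 1032 and 1142 in the control and 843, 956 and 840.2 in the mutant pools (log2 difference -0.28, SE 0.07, adjusted p = 0.124). *Atf4* was at 3755, 3895 and 3583 against 3302, 3414 and 3553 (-0.13, SE 0.05, adjusted p = 0.249). Both were lower in every mutant pool. *Ddit4*, which encodes the mTORC1 inhibitor REDD1, was higher in every mutant pool, at 1065, 1066 and 1059.6 against 1270.0, 1129 and 1295 (0.21, SE 0.06, adjusted p = 0.164). None of the 3 passed the adjusted threshold, and the part of the epithelial and other tissue markers in these and the preceding differences was not tested.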

How the data were processed

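Whole lungs of stage E11.5dpc were pooled by genotype. The labels gave the group and the replicate number of each pool. Per the labels, the submitters' processing notes name Trim Galore, HISAT2, featureCounts, DESeq2 and the mm10 build, without versions. In the deposited table the signal values are gene counts that the authors had scaled by 1 size factor per library (normalized counts). The authors' own fold changes and p-values were not used. The members and gene lists were chosen with earlier results of these data known.

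The groups were compared with limma 3.58.1 in R 4.3.3 (lmFit, eBayes with trend) on log2(normalized count + 1), which understates the change of low genes, with Benjamini-Hochberg adjustment over 17168 genes and a threshold of 0.05. This fit and the count tests were tested on simulated data. The planted changes there were larger than any estimate of the translation genes, and no pool was made to stand apart. How the fits perform on differences as small as these was not tested. Reads were recovered for 5 of 6 libraries (100% of values whole within 0.1 read), for edgeR 4.0.16 (TMM) and DESeq2 1.42.0. The values of control pool 3 rise in steps of 0.994, too close to 1 for the recovery to be checked, so the count tests ran on the other 5. Other alternatives were another scaling, filter, pseudocount, covariate or block, no trend, and leaving out each library. Named genes are the listed panel, those with an unadjusted p under 0.05, and *Rptor*, *Mtor*, *Atf4*, *Pdcd4*, *Rps6kb1* and up to 3 genes per list. Further members are given by range or as examples. Pools are of separate lungs. P-values rest on the spread between pools, 3 a group in the main fit. In limma, eBayes draws the spread of each gene toward a trend fitted over all genes tested. Levels per kilobase used the joined length of all annotated exons of a gene in GENCODE M21 (GRCm38). All 67 genes matched there by name or RefSeq synonym. Promoter windows came from RefSeq for 49 genes. How strand was treated in counting is not given in the sources used here.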

Additional observations from a re-analysis of the deposited data

How the results depend on the processing

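The median log2 difference of the translation genes stayed below 0 under all 15 alternatives (-0.05 to -0.03 over the leave-one-out fits). The count of genes past the adjusted threshold was 8 without the variance trend, 545 with edgeR and 404 with DESeq2 on 5 libraries, and 1 to 468 when 1 pool was left out, which every such fit moved by over 1.5 times (1 without control pool 1 or mutant pool 3, 12 without mutant pool 1, 21 without mutant pool 2, 147 without control pool 2 and 468 without control pool 3). Translation genes past it numbered 2 with edgeR, 5 with DESeq2 and 0 to 1 with a pool left out (1 without control pool 3). Those higher at an unadjusted p under 0.05 numbered 1 without the trend and 1 to 2 with a pool left out (1 without mutant pool 1 or 2), and those lower 1 without the trend, 9 with *Xist* as a covariate, 13 with edgeR, 9 with DESeq2 and 1 to 12 with a pool left out (2 without control pool 1, 12 without control pool 3, 3 without mutant pool 2 and 1 without mutant pool 3). The cause was not tested, other than that fewer samples entered the fits on 5 libraries.

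The sign of the difference turned for 17 of 64 genes with *Xist* as a covariate, 8 each with edgeR and DESeq2, 2 with upper-quartile scaling, 4 to 10 with a pool left out, and 0 under the other 5. With *Xist* these included *Eif2c3* (from -0.28 to 0.39) and, among the named panel, *Eif4ebp2* 0.037, *Eif4ebp3* 0.083, *Eif4a2* 0.054, *Eif2s3y* -0.11 (from 0.23), *Eif2ak1* -0.033, *Eif5a2* 0.034, *Eef1a1* -0.000775 and *Eef2* -0.023. With edgeR the panel's were *Eif4ebp1* -0.043, *Eif4ebp3* 0.11, *Eif4a2* 0.023 and *Eif2ak1* -0.012, with DESeq2 -0.042, 0.11, 0.025 and -0.011 for the same genes in that order, and with upper-quartile scaling *Eif4b* -0.000468. With a pool left out, signs turned within -0.040 to 0.080 for *Eif4ebp1*, -0.091 to 0.10 for *Eif4ebp3*, -0.033 to 0.025 for *Eif4a2*, -0.014 to 0.018 for *Eif4b*, -0.016 to 0.029 for *Eif2ak1*, -0.12 to 0.00225 for *Eif2ak3*, -0.11 to 0.00130 for *Eif6* and -0.043 to 0.084 for *Eef2k*, and for the ratios within -0.030 to 0.13 for *Eif4ebp1* to *Eif4ebp2* and -0.12 to 0.11 for *Eif5a2* to *Eif5a*. DESeq2 gave *Eef1a2* no adjusted p.

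With the replicate number as a block, 71 genes passed the threshold, 0 of them translation genes, with 2 translation genes higher and 7 lower at an unadjusted p under 0.05 and a median of -0.04. Deviations of same-numbered pools, over all tested genes, correlated at -0.02, 0.10 and 0.03. The labels give the pools only a number, and whether same-numbered pools share a litter or batch was not tested.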
